A study of Arabidopsis thaliana with 20 samples.

Results

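The serine carboxypeptidase-like (SCPL) and beta-glucosidase (BGLU) families of Arabidopsis thaliana were examined in giant cells and control root cells. Members were all probe sets listed with a single gene whose symbol is SCPL or BGLU followed by digits, with BGLU28 left out. This gave 48 of 22746 probe sets, 29 SCPL and 19 BGLU, each for a different protein-coding gene. All 48 carry the plain _at suffix, which the maker of the array gives to probe sets designed for 1 gene. Another 3 probe sets of these families are listed with several genes and were not used.

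SCPL proteins share the fold and catalytic residues of serine carboxypeptidases, which remove single amino acids from the carboxyl end of peptides. Some plant members instead transfer acyl groups from glucose esters, as in the synthesis of sinapate esters. BGLU enzymes cleave glucose from small molecules stored as glucosides, such as precursors of lignin, hormones and defence compounds, and the glucosinolate-cleaving myrosinases belong to the same class. Several are abundant in roots, among them PYK10, the main enzyme of the endoplasmic reticulum (ER) bodies of Brassicaceae.

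Cells were collected by laser capture from Arabidopsis of the Columbia ecotype. Seedlings 3 weeks old had been inoculated with 1000 second-stage juveniles of Meloidogyne incognita, a root-knot nematode whose feeding turns root cells into giant cells, and the capture was made at 21 days after inoculation. A giant cell sample held about 80 cells and a control sample about 150 cells from uninfested stretches of the same infested roots. The controls therefore come from infested plants, and cell type goes with the number of cells captured. RNA was amplified with the WT-Ovation Pico kit after spin-column isolation, or with the WT-Ovation One-Direct kit straight from lysed cells, so that kit and isolation cannot be told apart. Control and giant cells with each kit made 4 groups of 3 biological samples. In each group 1 of them was split over 3 technical arrays, whose log2 values were averaged, so that every group has n = 3. The plants behind each sample are not given in the labels, so the p-values cover no more than the spread among the samples at hand, which may be technical.

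Values are MAS5 signals, scaled by the authors to a trimmed mean of 500 on each of the 20 arrays. Changes are differences of log2(signal + 16), which understates changes of dim probe sets, and they are relative to the array, not amounts per cell. In such captured samples fewer cells of a type and less RNA per cell cannot be told apart. Samples of a group correlated over all probe sets at 0.92 to 0.968 with Pico and at 0.69 to 0.852 with One-Direct. The lowest values, 0.741 and 0.69, were those of One-Direct control sample 1. The log2 ratio of the 3' to the 5' GAPDH control probe sets, a measure of RNA ends, also moved with cell type. It was 2.34 ± 0.20 (SD) in control and 1.2 ± 0.16 in giant cells with Pico, and 3.46 ± 1.02 and 2.27 ± 0.18 with One-Direct. Its part in the results below was not tested. Of the marker lists, those of phloem, endodermis, xylem, root meristem with stele, and general root genes had no probe set named with a single gene. The root hair genes EXPA7 and EXPA18 did not reach the filter, with a summed signal of 12.8 to 151 in control and 12.9 to 96.6 in giant cells. The 1 gene matched for cortex, PEP, is a different gene of that symbol, so the makeup of the control samples could not be read. RCA and PSAE-1, genes of green tissue, summed to 122 to 2470 in control and 399 to 1490 in giant cells, and neither passed the test. LBD16, the 1 measured gene of the giant cell list, changed by -0.21 (adjusted p = 0.771, limma). Of the defence list WRKY53 fell in giant cells, by 3.41 on the log2 scale (adjusted p = 0.000484, limma), and PDF1.2 was not kept. The summed signal of these was 1660 to 5260 in control and 182 to 593 in giant cells.

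Tests covered probe sets whose signal exceeded the array's median in 3 or more of the 12 samples. This kept 23 members, 10 of 29 SCPL and 13 of 19 BGLU, or 47.9% against 64.4% of all probe sets. The other 25 members had signals from 0.989 to 1020, and 6 of them exceeded 300 in some sample. They were BGLU16, BGLU19, BGLU24, BGLU31, BGLU36 and BGLU43 with SCPL16, SCPL18, SCPL21, SCPL22, SCPL23, SCPL27, SCPL28, SCPL30, SCPL32 to SCPL35, SCPL38, SCPL40 to SCPL44 and SCPL47. The signal of 1020 was that of BGLU24 in One-Direct giant sample 1, where samples 2 and 3 read 69.4 and 80.9. SCPL23 read 642 in One-Direct control sample 3 and 52.2 and 53.9 in the other One-Direct controls. A member can pass this filter through the group in which it is high, so the counts below describe the measured members and not whole families.

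Between giant and control cells over both kits, 5 of the 23 members changed, and all 5 were lower in giant cells: the beta-glucosidases BGLU46 and BGLU44 and the carboxypeptidase-like genes SCPL45, SCPL48 and SCPL50 (limma, Benjamini-Hochberg adjusted p under 0.05 over 14652 probe sets). Over all tested probe sets 19.6% were called in either direction and 9.04% lower, against 21.7% of the members. By family, 2 of 13 BGLU and 3 of 10 SCPL fell and 0 rose, while 9 members, and 34.5% of all tested probe sets, had an unadjusted p under 0.05. The median change of the 23 members was -0.04, beside 0.24 for all 14652 probe sets. It was -0.03 for the 13 BGLU and -0.29 for the 10 SCPL. With all 48 members in the fit and no filter the median was -0.07, against 0.24 for all 22746. The same 5 members were called there, beside 11.7% of all probe sets. The shift of 0.24 in all probe sets depends on the scaling and was 0.17 with quantile normalization and 0.03 with median centring. Calls over all probe sets split with it, into 1544 higher and 1324 lower as scaled by the authors, 957 and 1303 after quantile normalization, and 815 and 1601 after median centring. The 5 members were called, in the lower direction, under all 3 scalings.

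**Figure D1:**
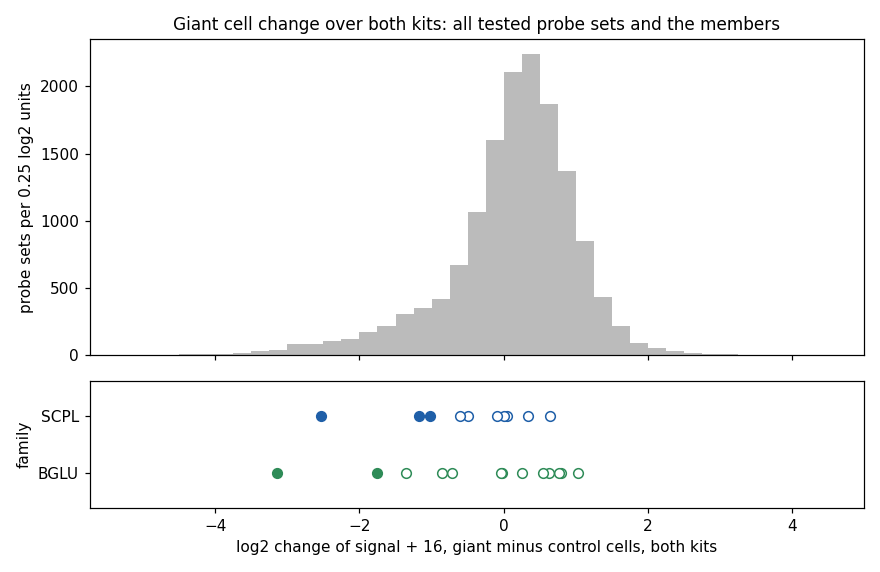
Log2 change of signal + 16 between giant and control cells over both kits. The upper panel counts all 14652 tested probe sets in bins of 0.25, and the lower panel shows the 10 SCPL and 13 BGLU members, filled where called; the called members run from -3.14 to -1.02 and no filled point lies above 0.

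BGLU46 (AT1G61820), which releases monolignols, the precursors of lignin, from their glucosides, had the largest change of the members. With Pico its signal was 2860, 3580 and 2280 in control samples 1 to 3 and 302, 444 and 341 in giant cell samples. With One-Direct it was 3770, 2860 and 2520 in control and 1100, 179 and 105 in giant cell samples. The groups did not overlap with either kit. Over both kits giant cells had an 8.84-fold lower signal (log2 change -3.14, SE 0.45, limma adjusted p = 0.000571), or -3.38 once the median change of all tested probe sets is taken off. Only 0.676% of tested probe sets had a lower change. With Pico the change was -2.94 (SE 0.63, adjusted p = 0.0105) and with One-Direct -3.35 (SE 0.63, adjusted p = 0.0133). The One-Direct value was -4.30 without giant sample 1 and -2.70 without giant sample 3, where it no longer passed (adjusted p = 0.0543), nor did it without giant sample 2 (-3.04, adjusted p = 0.0652).

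BGLU45 (AT1G61810) lies next to BGLU46 in the genome and also acts on monolignol glucosides. Its signal was 209, 415 and 106 in control and 49.5, 5.47 and 51.7 in giant cells with Pico, again without overlap. With One-Direct the groups overlapped, at 188, 423 and 71.1 in control and 109, 324 and 63.3 in giant cells. Its change did not pass over both kits (-1.36, SE 0.51, adjusted p = 0.0757) or with Pico (-2.32, SE 0.72, adjusted p = 0.0621). BGLU47 (AT4G21760), a relative of this pair, did not pass either (0.79 over both kits, adjusted p = 0.173). Its One-Direct samples lay at 20.7, 118 and 83.9 in control and 197, 397 and 259 in giant cells, and its Pico samples overlapped.

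BGLU44 (AT3G18080) was lower in giant cells by a factor of 3.39 (log2 change -1.76, SE 0.53, limma adjusted p = 0.0337). Its control samples varied widely, at 308, 2050 and 1200 with Pico and 120, 1150 and 242 with One-Direct. Giant cell samples were at 92.6, 125 and 133 with Pico, below every control sample of that kit, and at 155, 279 and 175 with One-Direct, within the control range. The change was -2.82 with Pico (SE 0.75, adjusted p = 0.0308; -3.59 without control sample 1) and -0.70 with One-Direct (SE 0.75, adjusted p = 0.592). The call over both kits was lost, with adjusted p from 0.0512 to 0.0807, on leaving out One-Direct control sample 2, One-Direct giant sample 1 or 3, Pico control sample 2 or 3, or any of the 3 Pico giant samples. Without Pico control sample 2 or 3 or any 1 of the 3 Pico giant samples, its Pico call was lost as well (adjusted p 0.0741 to 0.126), and so it was with quantile normalization (0.0613).

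SCPL48 (AT3G45010) is a close relative of SCPL49, the plant counterpart of the vacuolar carboxypeptidase Y of yeast. It fell by 2.53 on the log2 scale in giant cells, which is 5.76-fold (SE 0.64, limma adjusted p = 0.0161). With Pico the signal was 3130, 4250 and 2820 in control and 543, 632 and 363 in giant cells, without overlap. With One-Direct it was 1180, 2480 and 3020 in control and 2110, 500 and 46.9 in giant cells, where giant sample 1 lay among the controls. Within single kits the change was -2.71 (Pico, adjusted p = 0.0846) and -2.35 (One-Direct, adjusted p = 0.132), and neither passed. The change over both kits rested in size on the One-Direct giant samples, at -1.85 without sample 3, which read 46.9, and -3.12 without sample 1, and it was called each time.

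SCPL49 (AT3G10410) did not pass (0.33, SE 0.25, adjusted p = 0.374). With Pico its signal was 1250, 1150 and 1210 in control and 1590, 2360 and 1730 in giant cells, all higher. With One-Direct the groups overlapped, at 1510, 923 and 1510 in control and 1820, 1090 and 1140 in giant cells.

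SCPL45 (AT1G28110) had the smallest standard error of the called members. Its signal was 2910, 3430 and 3120 in control and 1740, 1630 and 1350 in giant cells with Pico, and 4570, 3930 and 3790 against 2180, 1370 and 1350 with One-Direct. Neither kit showed overlap. It fell by 1.18 on the log2 scale in giant cells, or 2.26-fold (SE 0.23, limma adjusted p = 0.00401). With One-Direct the change of -1.35 passed (adjusted p = 0.0311), and with Pico the change of -1.0 did not (adjusted p = 0.0747).

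SCPL50 (AT1G15000) was 2.03-fold lower (log2 change -1.02, SE 0.27, limma adjusted p = 0.0215). Its Pico signals were 1340, 1210 and 1170 in control and 774, 487 and 507 in giant cells. Its One-Direct signals were 1450, 572 and 769 in control and 507, 351 and 470 in giant cells, which left no overlap with either kit. Adjusted p rose to between 0.0501 and 0.059 without One-Direct giant sample 2, Pico control sample 1, or Pico giant sample 2 or 3. Within single kits SCPL50 did not pass, at -1.09 with Pico (limma adjusted p = 0.106) and -0.95 with One-Direct (limma adjusted p = 0.152).

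**Figure D2:**
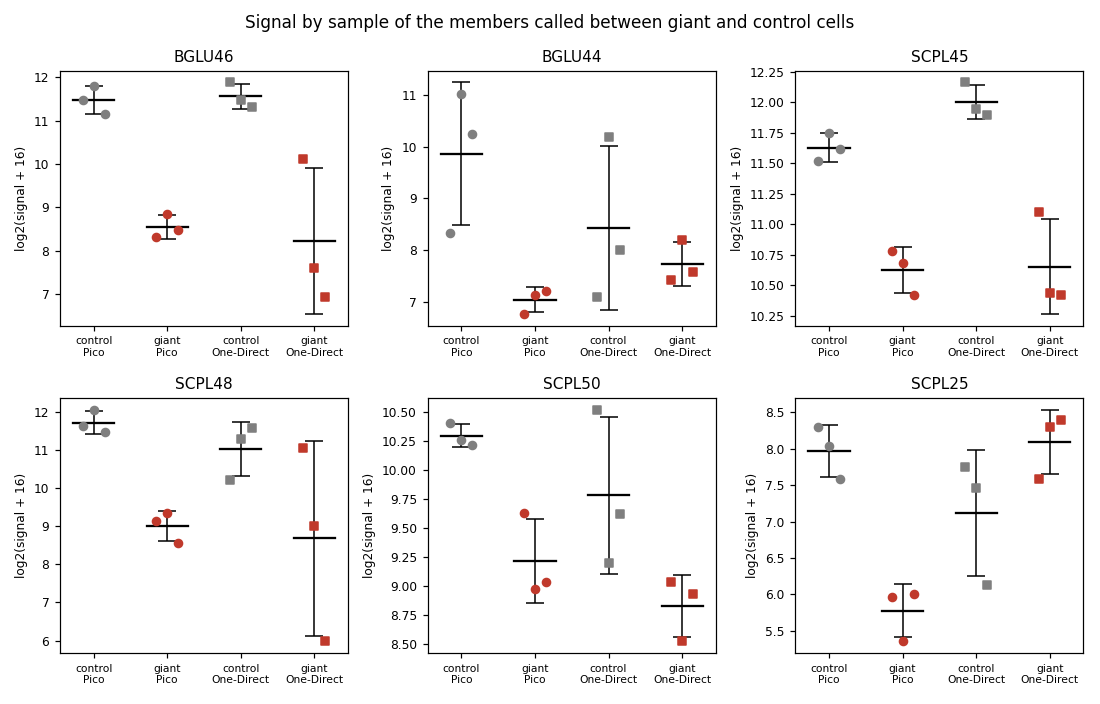
Log2(signal + 16) of the 5 members called over both kits and of SCPL25, called with Pico, in each biological sample (circles, Pico; squares, One-Direct; grey, control; red, giant cells), with the group mean and SD (n = 3). BGLU46, SCPL45 and SCPL50 are lower in every giant cell sample than in every control sample of the same kit; in SCPL48 One-Direct giant sample 1, at a signal of 2110, lies among the controls.

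Giant cell samples lay below all control samples of their kit, with both kits, for 3 of the 23 members (BGLU46, SCPL45 and SCPL50), or 13%, beside 4.59% of all tested probe sets. They lay above for 1 member, BGLU32, or 4.35%, beside 7.47%. One-Direct giant sample 1 had the highest signal of its group in 4 of the 5 called members, the exception being BGLU44. Without it the changes were -3.62 for BGLU46, -1.29 for SCPL45, -3.12 for SCPL48 and -1.07 for SCPL50, all still called, and -1.68 for BGLU44 (adjusted p = 0.0657). Without One-Direct giant sample 3, the lowest of its group for BGLU46, SCPL45 and SCPL48, these 3 changes were -2.82, -1.12 and -1.85, and all were called. With sample 1 of each One-Direct group set aside, a choice made after the correlations and values had been seen, 7 members were called, the 5 named with BGLU15 and SCPL29, all lower. The count was 8 without One-Direct control sample 3, where BGLU42 was called as higher, and 3 without Pico giant sample 2 or 3. The share of all tested probe sets called moved too, from 19.6% to 27.1% with sample 1 of each One-Direct group set aside. It was 23.5% without One-Direct control sample 3, and 14.9% or 12.3% without Pico giant sample 2 or 3. Technical arrays of a split sample set the scale of these values. For BGLU46 the SD over technical arrays was 0.12 and 0.39 log2 units with Pico (control sample 2 and giant sample 1) and 0.35 and 0.58 with One-Direct. In One-Direct giant sample 1 the 3 technical arrays gave 235, 308 and 45.8 for BGLU44, an SD of 1.29. The median technical SD of the 23 members was 0.282 to 0.358 with Pico and 0.593 to 0.614 with One-Direct. Their median SD among biological samples was 0.322 in control and 0.4 in giant cells with Pico. With One-Direct it was 0.896 in control and 0.503 in giant cells, the latter below the technical 0.593 of that group.

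The 18 tested members that were not called over both kits had changes from -1.36 (BGLU45) to 1.03 (BGLU32). BGLU32 (AT5G24550) fell just short (SE 0.34, adjusted p = 0.0502), with signals of 9.89, 10.1 and 9.38 in control and 12.8, 37.4 and 17.4 in giant cells with Pico. These Pico values lie about the pseudocount of 16. With One-Direct it was at 48.6, 252 and 81.8 in control and 253, 315 and 450 in giant cells. It was called as higher in 4 of 22 other settings, with adjusted p from 0.00636 to 0.115.

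BGLU42 (AT5G36890) cleaves the coumarin glucoside scopolin in roots. It had 833, 943 and 996 in control and 1140, 1620 and 1440 in giant cells with Pico, all higher. With One-Direct its control samples spread from 315 to 1630 around giant cell values of 1340, 1310 and 1190. The change of 0.76 did not pass (SE 0.34, adjusted p = 0.134).

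BGLU33 (AT2G32860), a vacuolar enzyme that frees abscisic acid from its glucose ester, had the largest standard error over both kits of the 23 members, 0.81. Its Pico control samples read 33.7, 1200 and 97 and its Pico giant samples 47.3, 387 and 1.36. With One-Direct all giant cell samples (191, 296 and 761) lay above the controls (24, 65.7 and 55.6), yet the change of 2.58 had an SE of 1.15 and did not pass (adjusted p = 0.188).

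BGLU15 (AT2G44450), which hydrolyses flavonol glycosides, changed by -0.85 (SE 0.39, adjusted p = 0.138), with overlap with both kits. Of the remaining carboxypeptidase-like genes, SCPL26 was higher in all Pico giant samples (439, 387 and 527) than in the Pico controls (236, 266 and 285). SCPL29 was lower there (329, 455 and 332 against 663, 864 and 659). Neither passed over both kits (0.64 and -0.49, adjusted p = 0.267 and 0.338). SCPL20, SCPL31 and SCPL46 had changes between -0.09 and 0.04 with SEs of 0.34 to 0.43. Among the remaining beta-glucosidases BGLU25 changed by -0.04 (SE 0.42), with 1 control sample apart, at 1850 against 429 and 243 (One-Direct). BGLU40 was higher in all Pico giant samples (390, 296 and 459) than in the Pico controls (90, 282 and 108), but its change of 0.55 over both kits did not pass (SE 0.46, adjusted p = 0.418).

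With Pico alone 3 of 23 members changed, BGLU44, BGLU46 and SCPL25, all lower in giant cells, beside 9.49% of all probe sets in either direction, 7.06% lower and 2.43% higher. Giant cell samples lay below all Pico controls for 10 members, or 43.5%, beside 17.5% of all tested probe sets, and above for 5, or 21.7%, beside 25%. Another 5 members were at an unadjusted p under 0.05 there, 8 in all (34.8%), beside 22.3%. The median change of the 23 members with Pico was -0.78, beside 0.16 for all tested probe sets. SCPL25 (AT3G02110) had 298, 246 and 177 in control and 46.5, 24.9 and 48.4 in giant cells. The groups were well apart, and the signal was 4.59-fold lower (log2 change -2.20, SE 0.45, limma adjusted p = 0.00841; -1.54 with a pseudocount of 64). With One-Direct its giant cell samples were at 176, 300 and 321 and its controls at 200, 160 and 53.9, a change of 0.98 in the other direction (adjusted p = 0.201). The Pico count was 7 and 5 without One-Direct control sample 1 or 2, which enter only through the shared estimate of the spread, 8 with sample 1 of each One-Direct group set aside, and 9 with only the Pico samples in the fit. The share of all probe sets called rose in these fits too, to 15.6%, 10%, 17.1% and 20.9% in that order. In those 9 were BGLU27, BGLU45, SCPL29, SCPL45, SCPL48 and SCPL50, all lower. With quantile normalization 0 were called by limma, beside 5.09% of all probe sets, with BGLU46 at an adjusted p of 0.0747 and SCPL25 at 0.0578.

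With One-Direct alone BGLU46 and SCPL45 fell, 2 of 23 members, beside 5.64% of all probe sets in either direction, 2.1% lower and 3.54% higher. Giant cell samples lay below all One-Direct controls for the 3 members BGLU46, SCPL45 and SCPL50 (13%, beside 6.81%) and above for BGLU32, BGLU33 and BGLU47 (13%, beside 14.6%). The median change of the members was 0.10, beside 0.31 for all tested probe sets. Both calls rest on a spread shared with Pico: with only the One-Direct samples in the fit, adjusted p was 0.126 and 0.23, and limma called 0 members, as it called 0 of all 14652 probe sets. When all 12 samples were fitted, 8 members reached an unadjusted p under 0.05, or 34.8%, beside 24.6% of all tested probe sets. Without the filter BGLU46 was the 1 member called of 48, beside 3.5%. The count was also 0 without One-Direct giant sample 2 or 3, 1 (BGLU46) without Pico giant sample 1 or 3, and 4 without One-Direct control sample 2, with BGLU32 and BGLU47 called as higher. With sample 1 of each One-Direct group left out it was 4, with BGLU29 called as higher and SCPL48 as lower. Without One-Direct giant sample 2 or 3, 1.3% or 1.34% of all probe sets were called. The share was 3.36% or 3.65% without Pico giant sample 1 or 3, 9.77% without One-Direct control sample 2 and 11.7% in the last fit.

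**Figure D3:**
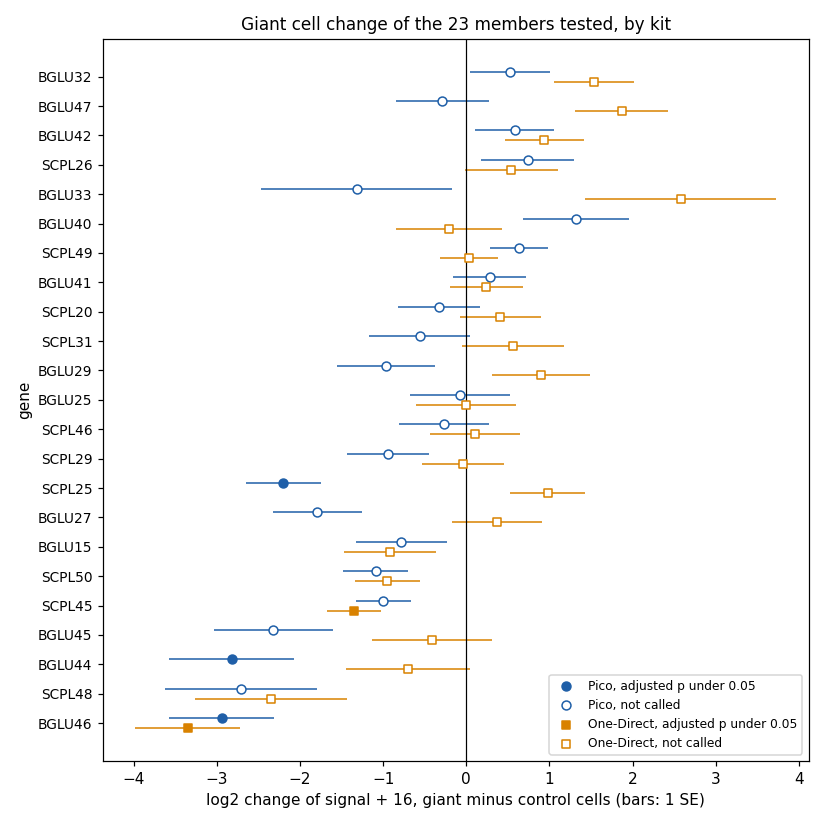
Log2 change of signal + 16 between giant and control cells for each of the 23 tested members, with Pico (circles) and One-Direct (squares), bars of 1 SE, and filled symbols where the adjusted p is under 0.05. BGLU46 is filled with both kits, at -2.94 and -3.35; SCPL25 lies at -2.20 with Pico and 0.98 with One-Direct.

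The 2 kits gave changes of the same sign for 14 members (9 lower and 5 higher with both) and of opposite sign for 9. The share over all probe sets is not given here, so these counts are not read as agreement or disagreement. Some of the signs are of changes near 0, as for BGLU25 at -0.08 with Pico and 0 with One-Direct. No member passed the test of the difference between the kits' giant cell changes (0 of 23 by limma, with 5 at an unadjusted p under 0.05, beside 9.19% of all probe sets, of which 0.0205% passed). The largest difference in units of its error was that of SCPL25 (3.18, SE 0.64, adjusted p = 0.0979). It was called with sample quality weights, and also on leaving out sample 1 of each One-Direct group, and its adjusted p ran from 0.0334 to 0.623 over 22 other settings. BGLU47 (2.17, SE 0.79), BGLU27 (2.16, SE 0.77), BGLU33 (3.90, SE 1.63) and BGLU29 (1.88, SE 0.83) had adjusted p from 0.386 to 0.524.

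Between the kits over both cell types, 4 of 23 members differed, all of them beta-glucosidases and all higher in One-Direct: BGLU27, BGLU29, BGLU32 and BGLU41. Over all probe sets 34.3% were called in either direction, 18% higher and 16.3% lower. The one direction depended on the scaling. With quantile normalization 3 members were called higher (BGLU27, BGLU29 and BGLU32) and 2 lower (BGLU47 and SCPL29), and with median centring SCPL50 joined those lower, which made 3 and 3. Over all probe sets the split was 2635 higher and 2392 lower as scaled by the authors, 2229 and 2928 with quantile normalization, and 2101 and 4629 with median centring. BGLU32 read 9.38 to 37.4 with Pico and 48.6 to 450 with One-Direct (log2 change 2.71, SE 0.34, limma adjusted p = 4.91e-05). Its Pico signals lie about the pseudocount, which therefore sets the size of the change: 3.69 with a pseudocount of 1 and 1.71 with one of 64. The same pseudocounts gave 3.39 and 1.66 for BGLU29 and 2.84 and 1.42 for BGLU27, and all 6 values passed. BGLU29 (AT2G44470) ran from 75.7 to 607 with One-Direct against 1.75 to 51.9 with Pico (log2 change 2.52, SE 0.42, adjusted p = 0.000421). BGLU27 (AT3G60120) ran from 98.1 to 368 against 1.5 to 103 (log2 change 2.1, SE 0.39, adjusted p = 0.000909). BGLU41 (AT5G54570) ran from 187 to 569 against 99.8 to 191 (log2 change 1.09, SE 0.31, adjusted p = 0.0158), and its call was lost with quantile normalization, median centring and the first technical array alone. Of BGLU29, BGLU32 and BGLU41, One-Direct samples exceeded all Pico samples within each cell type, 13% of members beside 12% of all tested probe sets, and no member showed the opposite (11.1%). The difference of the kits was not called for BGLU46, SCPL45, SCPL48, SCPL50 or BGLU44, with changes from -0.51 to 0.20. Among the 25 members below the filter, a fit on all 22746 probe sets called 10, each higher in One-Direct, so that 14 of 48 members were called there beside 36.1% of all probe sets. Calls over all probe sets leaned the same way in that fit, with 5736 higher and 2484 lower. Between giant and control cells the changes of these 25 ran from -0.94 to 1.02 in the same fit.

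**Figure D4:**
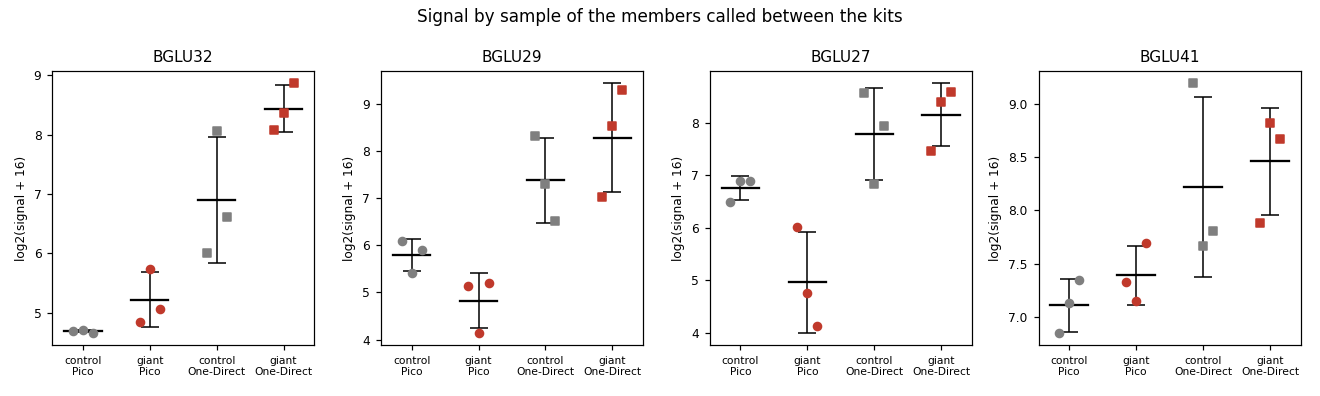
Log2(signal + 16) of the 4 beta-glucosidases called between the kits in each biological sample (circles, Pico; squares, One-Direct; grey, control; red, giant cells), with the group mean and SD (n = 3). The Pico samples of BGLU32 lie close to the floor that the pseudocount of 16 sets, at signals of 9.38 to 37.4.

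By position in the genome, 7 pairs of members are neighbours, 6 with no protein-coding gene between them. In 5 of the pairs at least 1 member was below the filter and not tested. Beside BGLU46 and BGLU45, BGLU44 (-1.76) adjoins BGLU43 (-0.01), and BGLU32 (1.03) adjoins BGLU31 (-0.40), where BGLU43 and BGLU31 were below the filter. BGLU27 (-0.71) adjoins BGLU16 (-0.46), SCPL22 (-0.38) adjoins SCPL23 (-0.94), and SCPL26 (0.64) adjoins SCPL28 (0.12).

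The RefSeq synonyms place 2 further probe sets in these families under other symbols. PYK10 (AT3G09260) fell in giant cells by 3.14 on the log2 scale (SE 0.72, adjusted p = 0.00946, limma), and ATA27 was not kept. With Pico, PYK10 read 21500, 17800 and 21900 in control and 1530, 6860 and 1300 in giant cells. With One-Direct it read 12700, 8260 and 10200 in control and 8000, 917 and 171 in giant cells. No giant cell sample reached a control sample of its kit, and One-Direct giant sample 1 came closest. Within single kits neither change passed (-3.08 with Pico, adjusted p = 0.0788, and -3.20 with One-Direct, adjusted p = 0.078). Over both kits the change was -3.85 without One-Direct giant sample 1 and -2.49 without sample 3, and was called each time.

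ER bodies are stores of such beta-glucosidases in root and seedling cells. Of 16 genes on an ER body list, 7 had a probe set with a single gene and 6 were kept. The list was chosen with earlier results of these data known. The median change of the 6 was -2.82, beside 0.24 for all tested probe sets. Of the 6, 5 fell and 0 rose, where 9.04% of all tested probe sets were called lower and 10.5% higher. The 5 were PYK10, NAI1, the transcription factor needed for ER bodies (-1.98, SE 0.34, adjusted p = 0.00199), NAI2, a protein of the ER body itself (-2.81, SE 0.44, adjusted p = 0.00112), and JAL33 (-2.90, SE 0.68, adjusted p = 0.0109, or -3.56 without One-Direct giant sample 1) and JAL34 (-2.84, SE 0.45, adjusted p = 0.00109), jacalin-related lectins found with PYK10. Apart from PYK10, each passed with Pico in the fit on all 12 samples. With One-Direct in that fit NAI2 and JAL34 passed (limma adjusted p = 0.0328 and 0.0362), and NAI1 and JAL33 did not (0.0834 and 0.138). These One-Direct calls rest on a spread shared with Pico. With only the One-Direct samples in the fit, limma called 0 of all 14652 probe sets. JAL22, another such lectin, had a change of -2.00 (SE 0.77, adjusted p = 0.0859) and overlapping groups. Their summed signal with JAL23, which was not kept, was 22400 to 48900 in control and 1880 to 20100 in giant cells. In control cells most of this sum came from PYK10 (8260 to 21900) and JAL34 (5550 to 15700). JAL23 itself read 66.8, 175 and 55.8 in control and 358, 130 and 314 in giant cells with One-Direct. With Pico it read 48.1, 34.1 and 68.8 in control and 8.8, 37.8 and 4.75 in giant cells. NAI2 read 3510, 2010 and 2270 in control and 181, 311 and 443 in giant cells with Pico, and 1620, 1070 and 1240 against 735, 88.1 and 117 with One-Direct. The 5 calls over both kits held in each of the 22 or 23 other settings in which the gene was tested.

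**Figure D5:**
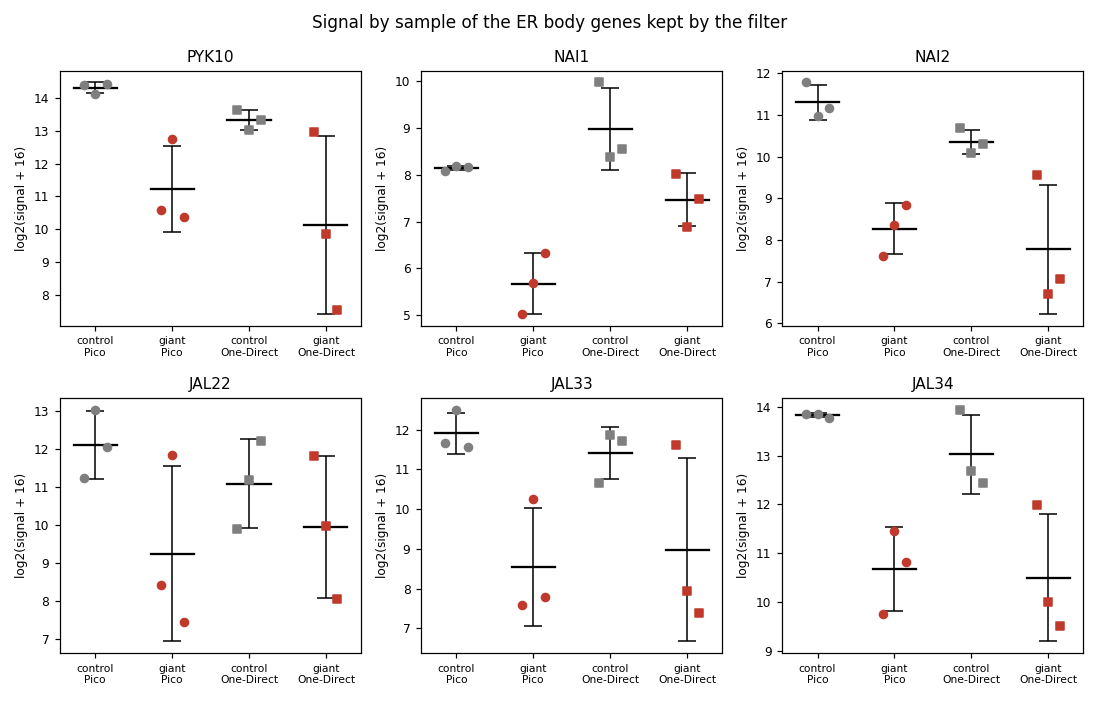
Log2(signal + 16) of the 6 ER body genes kept by the filter in each biological sample (circles, Pico; squares, One-Direct; grey, control; red, giant cells), with the group mean and SD (n = 3). Except in JAL22, and in JAL33 with One-Direct, every giant cell sample lies below every control sample of its kit.

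Lists of other genes on the substrates of these enzymes held few measured members, and they too were chosen with earlier results known. Over all tested probe sets 9.04% were called lower and 10.5% higher. With so few kept genes, 1 call does not describe a list. Of the monolignol glucoside list, 3 of 11 genes were kept and 1 fell: UGT72E2, which glucosylates monolignols and so makes substrates of the BGLU45 and BGLU46 type (-1.91, SE 0.31, adjusted p = 0.00134, limma). Its signal was 1990, 1680 and 1400 in control and 180, 267 and 287 in giant cells with Pico, and 456, 874 and 1170 against 591, 321 and 231 with One-Direct, where the groups overlapped. UGT72E2 passed with Pico (-2.72, limma adjusted p = 0.00199) and not with One-Direct (-1.10, adjusted p = 0.142). Over both kits UGT72B1, a related glucosyltransferase (-1.33, adjusted p = 0.0835), and HCT, an acyltransferase of lignin synthesis (-1.22, adjusted p = 0.106), did not pass. UGT72B1 passed with Pico (-2.61, adjusted p = 0.0382) and not with One-Direct (-0.06, adjusted p = 0.971), and the test of the difference between the kits is not reported here for it. Of the sinapate ester list 2 of 11 were kept and 1 fell, REF1, an aldehyde dehydrogenase that makes sinapic and ferulic acid (-2.38, SE 0.42, adjusted p = 0.00231), while UGT84A1 did not pass (-0.58, adjusted p = 0.346). REF1 passed with Pico (-2.98, limma adjusted p = 0.00735) and not with One-Direct (-1.79, adjusted p = 0.0908), though its groups did not overlap with either kit. UGT71C5, which glucosylates abscisic acid, was the 1 kept gene of 15 on that hormone's list and did not pass (-0.58, adjusted p = 0.363). Of 17 other peptidases of the secretory path 3 were kept, the vacuolar processing enzymes BETA-VPE (-0.15), GAMMA-VPE (-0.86) and ALPHA-VPE (-0.33), and none passed (limma, adjusted p 0.0827 to 0.696). The coumarin list had 1 named gene, F6'H1, which was not kept, and the myrosinase list had 0. Genes were matched by symbol or synonym, so a gene of these lists may be on the array under another name.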

How the data were processed

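The authors deposited 1 linear signal intensity per probe set, made with Affymetrix Expression Console and MAS5 per the submitters' processing notes. Their versions are not given in the labels used here. The table holds 22810 probe sets, of which 64 control probe sets were left out. From these values log2(signal + 16) was computed and technical arrays of a split sample were averaged. A model with 1 mean for each of 4 groups was fitted by limma 3.58.1 in R 4.3.3 (lmFit, eBayes), two-sided, over the 14652 probe sets kept, for 5 contrasts, with Benjamini-Hochberg adjustment at 0.05. The script was tested on simulated data. Genes came from the array's annotation, in which 13513 probe sets carry 1 gene; all 48 members matched the gene table of RefSeq (TAIR10.1), which gave locus names, synonyms and neighbours. Every member was to be described, and lists by counts and medians. Members and lists were chosen with earlier results of these data known. No replicate block was used, because the labels do not say that samples with the same number in different groups belong together. Same-numbered samples did not deviate together. Alternatives changed the pseudocount, filter, scaling, weights, technical arrays, block and samples. The number of samples limits the precision.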

Additional observations from a re-analysis of the deposited data

How the results depend on the processing

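The 5 calls over both kits numbered 3 to 8 when 1 sample was left out, where 12.3% to 26% of all probe sets were called, against 19.6%. BGLU46, SCPL45 and SCPL48 were called in all 23 other settings; BGLU44 was lost in 9 of 22 and SCPL50 in 4 of 23. The 3 Pico calls became 0 with quantile normalization, 1 with the stricter filter, which leaves 9 members, 8 with a weight per kit, 9 with only the samples compared, 10 with sample quality weights, 8 without the samples numbered 1 of One-Direct (chosen after seeing the data), and 2 to 7 when 1 sample was left out. The share of all probe sets called moved with them: 9.49% as reported, 5.09% with quantile normalization, 7.04% with the stricter filter, 22.1% with a weight per kit, 20.9% with only the samples compared and 28% with quality weights. It was 17.1% without the samples numbered 1 of One-Direct and 4.95% to 15.6% when 1 sample was left out. The 2 One-Direct calls became 0 with a weight per kit (0.232% of all probe sets, against 5.64%) and with only the samples compared (0 of all probe sets), 1 without a filter, 4 without those samples, and 0 to 4 when 1 sample was left out (1.3% to 9.77%). With the first technical array alone, SCPL38 passed the filter and was called higher in giant cells, over both kits and with One-Direct. BGLU32 was called higher over both kits there, where 15.4% (both kits) and 3.11% (One-Direct) of all probe sets were called. The 0 calls of the difference between kits became 1, SCPL25, with sample quality weights and without the samples numbered 1 of One-Direct, and stayed 0 in each fit without 1 sample. The 4 kit calls became 14 without a filter, which adds dim members to the fit, 0 with the stricter filter, and 4 or 5 when 1 sample was left out. Over all probe sets 34.3% were called as reported, 36.1% without a filter and 27.6% with the stricter one. The same replicate numbers occur in each group, but same-numbered samples of a kit correlated in their deviations at -0.064 to 0.03. With a replicate block the One-Direct count was 1, SCPL45 being lost (limma adjusted p = 0.0724), and no other count moved. No call reversed. Except where stated, the causes were not tested. Signals near the pseudocount, as for BGLU32 with Pico, limit the size of changes.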
